A study of Mus musculus with 8 samples.

Results

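The early growth response genes Egr1, Egr2 and Egr3 and the immediate early response genes Ier2, Ier3 and Ier5 were described in the mRNA-Seq data of Hepa 1.6 cells, a mouse hepatoma line, with and without KD of Kap1, the gene also called Trim28 that encodes the corepressor KAP1. These 6 genes were picked by name, with their level and their change in each pair of samples in Kap1 KD against control already known, so values of that contrast are given as a description with no test. Of the 6 names, 5 had a row among the 21915 genes of the table and all 5 passed the filter on low counts that left 14142 genes for testing. The table lists only genes with at least 1 count over its samples; it has no row for Egr3, which is not analysed here. The 2 Kap1 KD samples came from cells given a plasmid encoding an shRNA against Kap1 and the 2 control samples from cells that the labels describe as given a control shRNA plasmid and the methods of the study as given the empty pLKO vector. Cells of both groups were selected with puromycin and collected 5 days after transduction. One cell line and one shRNA vector were used, and neither labels nor methods say that the samples of a group were separate cultures, so any p-value measures only the spread between these samples, which may be technical. In each group 1 sample carries the number 2 and the other, which has no number, is called replicate 1 here.

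Immediate early genes are switched on within minutes of a stimulus without new protein synthesis. Growth factor or stress signals reach them largely through the ERK cascade, which phosphorylates ternary complex factors bound with SRF at CArG boxes, and through CREB at cyclic AMP response elements. EGR1, EGR2 and EGR3 are zinc finger transcription factors that bind GC-rich sites, are held back by the NAB corepressors, and EGR1 is part of the early response of liver to injury and partial hepatectomy. IER2 and IER5 are related nuclear proteins, and IER5 is known to act with the phosphatase PP2A on HSF1, whereas IER3 is a small stress-induced protein of cell survival and ERK signalling that has no sequence relation to them.

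The samples held between 41566888 and 53605115 counts. Trim28, the targeted gene, was at 456 and 575 CPM (counts scaled to a common library size with TMM factors, as in all CPM values below) in control replicates 1 and 2 and at 106 and 78.9 in the Kap1 KD replicates. Of the hepatoma markers, Alb, Afp and Hnf4a were present, whereas Ttr and Apoa1 were near 0, with means of 0.0866 and 0.259 CPM. The summed level of the 8 hepatoma and hepatocyte markers was 2450 and 2070 CPM in the controls and 1710 and 1100 in the Kap1 KD samples, so it was lower in the KD and lowest in Kap1 KD replicate 2. Among markers of other cells, the fibroblast list ranged from 1230 to 1700 CPM, nearly all of it Dcn, with Col1a2 near 0. The immune list ranged from 3.69 to 8.32 CPM, the endothelial list from 0.144 to 0.282 and the cholangiocyte list from 30.8 to 40.7. Kap1 KD replicate 2 stood apart in reads on the 49 annotated 7SK loci, at 43 CPM against 1.91 to 2.42 in the other 3 samples. The part of these differences in the values below was not tested.

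Promoters were looked up because the family is defined by its induction, and Ier3, Ier5 and Egr2 had entries in the RefSeq table (GRCm38.p6), of which the 250 bases before the start are shown. Egr1, Egr2, Egr3, Ier2, Ier3 and Ier5 were searched for by symbol, and 3 of them matched. In the lines below, capitals mark a CArG box in Egr2 and the letters TATAA in Ier3 and Ier5.
Egr2, chr10:67537619-67537868, plus strand: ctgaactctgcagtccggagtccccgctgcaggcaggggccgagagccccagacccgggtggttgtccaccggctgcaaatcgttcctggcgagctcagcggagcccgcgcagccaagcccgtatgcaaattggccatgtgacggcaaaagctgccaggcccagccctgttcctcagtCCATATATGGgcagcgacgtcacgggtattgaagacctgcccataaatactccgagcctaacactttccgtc
Ier3, chr17:35821463-35821712, plus strand: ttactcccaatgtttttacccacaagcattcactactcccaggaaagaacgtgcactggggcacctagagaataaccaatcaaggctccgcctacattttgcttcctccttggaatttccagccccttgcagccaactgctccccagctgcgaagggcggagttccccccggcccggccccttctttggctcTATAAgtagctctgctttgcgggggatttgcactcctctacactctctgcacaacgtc
Ier5, chr1:155099637-155099886, minus strand: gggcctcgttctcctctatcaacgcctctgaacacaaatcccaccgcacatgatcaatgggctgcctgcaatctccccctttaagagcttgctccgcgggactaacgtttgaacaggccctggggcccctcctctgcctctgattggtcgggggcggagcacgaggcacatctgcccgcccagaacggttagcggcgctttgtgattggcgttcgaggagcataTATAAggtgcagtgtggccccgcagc
The Egr2 box lay 72 to 63 bases before the start. Of the 5 overlapping or neighbouring Egr2 entries, which differ in their start, 4 held a CArG box, and 3 of these held the same one. On either strand, 1.47% of all 32851 promoters of this length held a CArG box. TATAA lay 58 to 54 bases before the start of Ier3 and 26 to 22 bases before that of Ier5, and 22.8% of all promoters held it. The Egr2 entry that starts farthest downstream also held it, within 12 bases of its start. The full cyclic AMP response element TGACGTCA, found in 1.55% of promoters, and the EGR motif GCGNGGGCG, found in 4.7%, were not among the letters of the 3 windows shown. GC content of the windows shown was 61.6% for Egr2, 54.4% for Ier3 and 60% for Ier5, against a median of 52.4% for all promoters. Over the 5 Egr2 entries it ran from 54% to 71.2%. A match in letters is a description and not a bound site.

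By gene structure the Egr and Ier genes were short, a trait on which they were not chosen. In the mm9 annotation Ier2 (ENSMUSG00000053560, chromosome 8, 87185230 to 87186751, minus strand) and Ier5 (ENSMUSG00000056708, chromosome 1, 156943497 to 156946766, minus strand) had 1 exon each. Ier3 (ENSMUSG00000003541, chromosome 17, 35958629 to 35959868, plus strand) and Egr2 (ENSMUSG00000037868, chromosome 10, 66998223 to 67004936, plus strand) had 2 exons. Of 12408 tested protein-coding genes, 4.38% had 1 exon and 9.11% had at most 2, and the median was 9. The spans ran from 1240 bp for Ier3 to 6714 bp for Egr2, against a median of 22131 bp, and 18.7% of tested protein-coding genes were no longer than Egr2. 

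Egr1 (ENSMUSG00000038418) also had 2 exons, in 3778 bp of chromosome 18 (35020861 to 35024638, plus strand). The annotation places Gm17507 on the other strand over Egr1. Gm17507 had no row among the genes counted. The library kit kept the strand, but the strand setting of the counting is not given in the sources used here, so reads of the pair may not have been told apart.

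The 5 genes spanned a wide range of levels. Scaled to exonic length as CPM per kilobase, and given as mean ± SD over the 4 samples, Ier2 was at 38.3 ± 7.81, Ier3 at 28 ± 8.82, Ier5 at 23.8 ± 3.16, Egr1 at 12 ± 3.14 and Egr2 at 0.168 ± 0.0481. The median tested gene was at 5.58, and Ier2 lay at percentile 86.3 of all tested genes with known length. Egr1 lay at percentile 66.5 and Egr2 at percentile 7.17. Ier2 was above Ier3 in all 4 samples by a mean ratio of 1.37, yet their ranges of 31.3 to 49.5 and 19.3 to 40.2 overlapped. Ier3 was above Ier5 in 3 of 4 samples with overlapping ranges, so these neighbours were not separated beyond the spread between samples. The steps from Ier5 (21.4 to 28.4) to Egr1 (9.11 to 16.1), a mean ratio of 1.98, and from Egr1 to Egr2 (0.113 to 0.228), a mean ratio of 71.4, had no overlap. The EGR pair was thus split between a moderately expressed member and one with few counts, while the 3 Ier genes sat together in the upper part of the distribution.

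**Figure D1:**
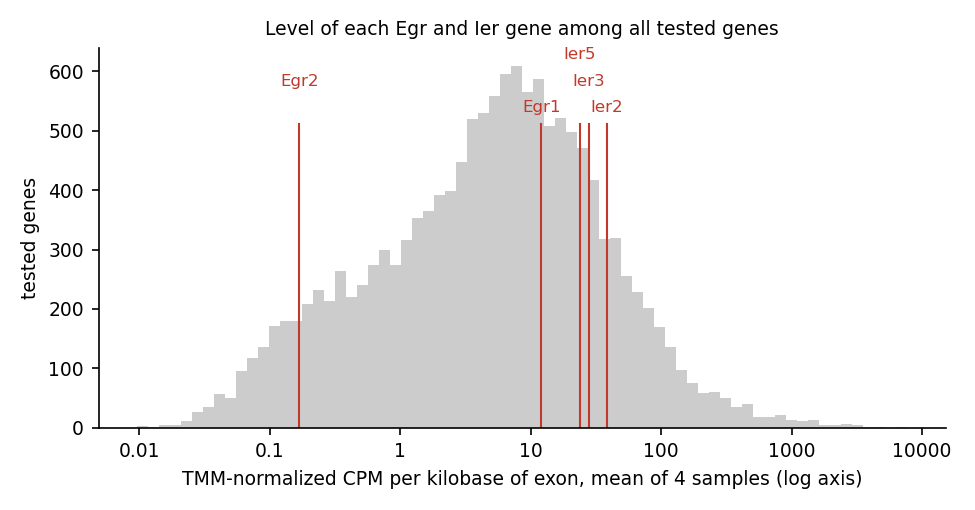
Distribution of the mean level over 4 samples (TMM-normalized CPM per kilobase of exon, log axis) for all tested genes of known length in grey, with red lines at the 5 Egr and Ier genes. Ier2, Ier3 and Ier5 lie between 23.8 and 38.3, Egr1 at 12 and Egr2 at 0.168.

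The first question was how each gene stood in cells depleted of KAP1. Egr1, the member best known as a rapid growth and injury response factor, was at 31.1 and 28.2 CPM in control replicates 1 and 2 and at 40 and 49.8 CPM in Kap1 KD replicates 1 and 2. Both KD samples were above both controls, and the group means were 29.7 ± 2.03 and 44.9 ± 6.88 CPM (SD, n = 2 each). The fitted log2 change was 0.60 (SE 0.21), and the log2 changes of the pairs were 0.36 and 0.82.

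Egr2, the factor of hindbrain and Schwann cell development that is also induced in lymphocytes, rested on few counts, 29 and 19 in the controls and 33 and 28 after KD. These gave 0.521 and 0.383 CPM in control and 0.775 and 0.599 CPM in Kap1 KD. The KD values were above both controls, but their 95% exact Poisson intervals overlapped: 0.349 to 0.748 and 0.231 to 0.598 CPM in control against 0.533 to 1.09 and 0.398 to 0.865 CPM in Kap1 KD. The fitted log2 change was 0.60 (SE 0.40), and a difference was not resolved at this depth. The intervals cover counting error only.

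Ier3 was at 21.8 and 28.2 CPM in control and at 31.4 and 45.4 CPM in Kap1 KD. The groups did not overlap, and the lower KD sample lay only slightly above the higher control. Means were 25 ± 4.52 and 38.4 ± 9.94 CPM (SD, n = 2 each), with a fitted log2 change of 0.62 (SE 0.28) and log2 changes of 0.52 and 0.69 in the pairs. This was the highest fitted change of the 5 genes, and it was 0.34 without Kap1 KD replicate 2 and 0.86 without Kap1 KD replicate 1.

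Ier2 was at 47.7 and 55.9 CPM in control and at 54.4 and 75.3 CPM in Kap1 KD. It was the member whose groups overlapped, since Kap1 KD replicate 1 was below control replicate 2; with total counts in place of TMM factors its groups did not overlap. The fitted log2 change was 0.32 (SE 0.24), the log2 changes of the pairs were 0.19 and 0.43, and the fitted change was 0.08 without Kap1 KD replicate 2 and 0.54 without Kap1 KD replicate 1.

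Ier5 was at 70.1 and 72.6 CPM in control and at 75.3 and 92.9 CPM in Kap1 KD. The controls were close together and the first KD sample was just above them. The fitted log2 change was 0.24 (SE 0.19), the lowest of the 5, with 0.10 and 0.36 in the pairs. It was 0.09 without Kap1 KD replicate 2 and 0.38 without Kap1 KD replicate 1. On leaving out the same samples the fitted change was 0.44 and 0.75 for Egr1 and 0.78 and 0.40 for Egr2.

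**Figure D2:**
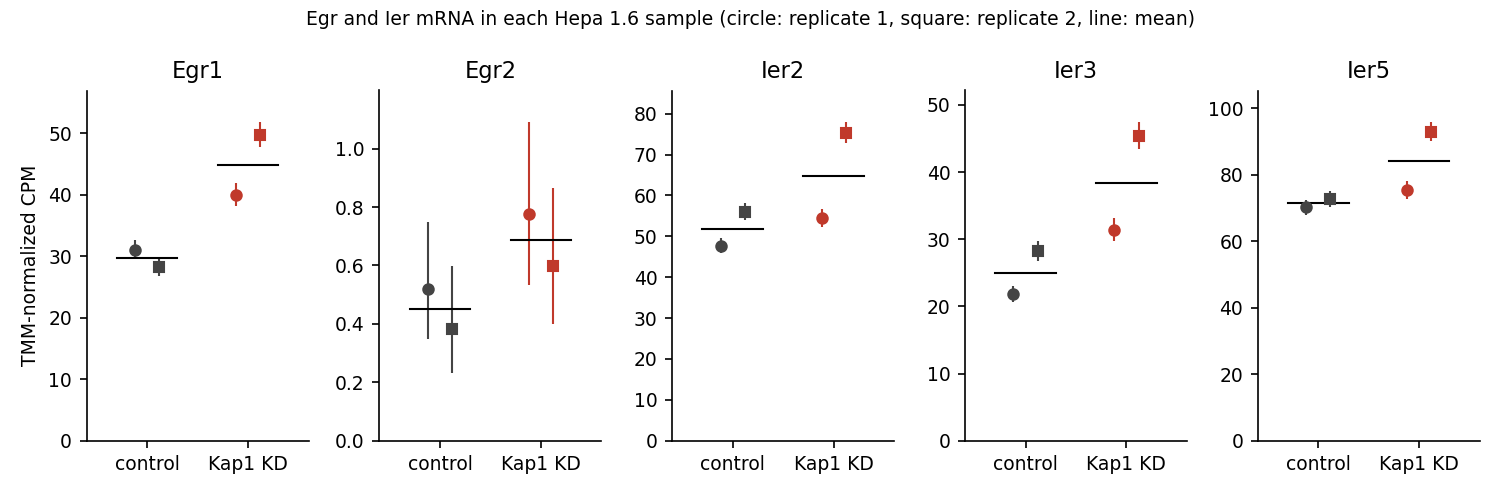
TMM-normalized CPM of each Egr and Ier gene in each sample, with grey for control, red for Kap1 KD, circles for replicate 1, squares for replicate 2, error bars for 95% exact Poisson counting intervals and black lines for group means. Each panel has its own axis from 0; with this scaling the groups overlap in Ier2, and the intervals of Egr2 are wide because of its 19 to 33 counts.

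Across the 5 genes, 4 (5 with total counts) had both Kap1 KD samples above both controls, a pattern seen in 9.69% of all tested genes, and 0 had both below, against 10.6%. All 5 were higher in both pairs, against 32.8% of tested genes. The change was larger in the replicate 2 pair in each of the 5, but for Egr2 this order turned under other settings. Its changes were 0.48 and 0.47 with total counts, and 0.22 and 0.21 with 1 CPM added in place of 0.1. The share of all tested genes with a larger change in the replicate 2 pair was not computed. Because the genes were chosen on these changes, nothing is read from these counts. For the replicate 1 pair the median change of the 5 was 0.36, against -0.02 over all tested genes, and for the other pair it was 0.53, against 0. Kap1 KD replicate 2 was the highest sample for 4 of the 5, Egr2 being the exception, and the share of all tested genes was not computed. In edgeR's quasi-likelihood test of the groups, 0% of tested genes passed a 1.5-fold change and an adjusted p under 0.05. The lowest adjusted p of this test was 0.9999, so even Trim28, the targeted gene, did not pass. An unadjusted p under 0.05 was found for 185 genes, and DESeq2 called 3 genes. With the replicate number as a further term, the block described below, edgeR called 292 genes higher and 339 lower. These are counts over all tested genes, and no test is given for the 5. 

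**Figure D3:**
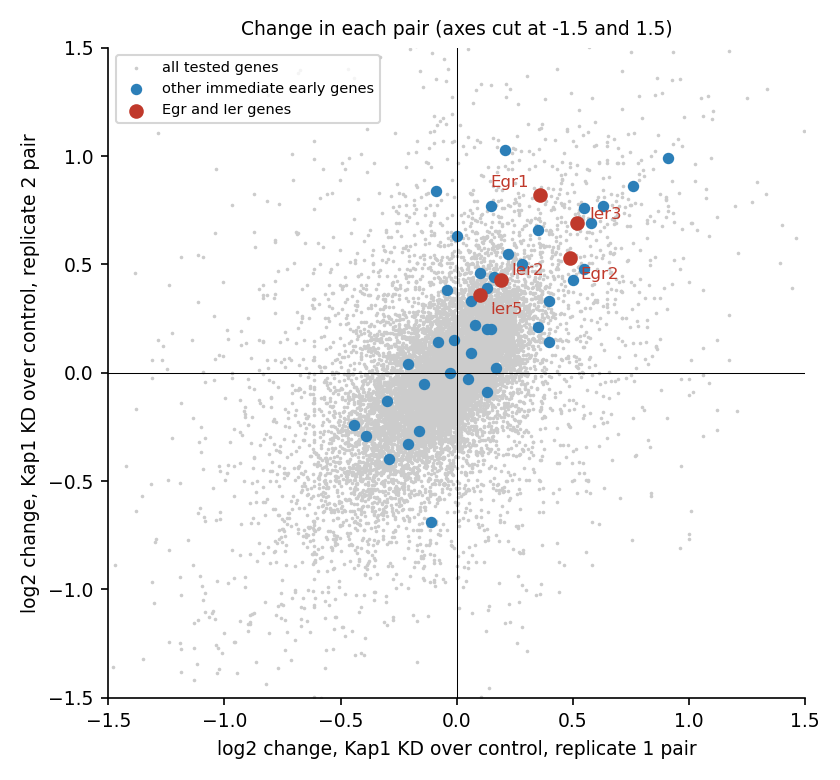
Log2 change in Kap1 KD over control in the replicate 1 pair (horizontal axis) and the replicate 2 pair (vertical axis), with 0.1 CPM added to each value, for all tested genes (grey), 41 other immediate early genes (blue) and the 5 Egr and Ier genes (red). Both axes end at a log2 change of 1.5 in size, which leaves out more extreme genes. The 5 genes lie above 0 on both axes, from Ier5 at 0.10 and 0.36 to Ier3 at 0.52 and 0.69 and Egr1 at 0.36 and 0.82.

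The second question, on which the genes had not been chosen, was how they differed between samples of the same group. With the group as a term in edgeR's quasi-likelihood model, the log2 difference of replicate 2 over replicate 1 was 0.45 for Ier3 (SE 0.08, adjusted p = 7.91e-08), 0.35 for Ier2 (SE 0.08, adjusted p = 3.81e-05) and 0.18 for Ier5 (SE 0.08, adjusted p = 0.0456). The 3 Ier genes were higher in replicate 2 in both groups: Ier3 by 0.37 in control and 0.53 in Kap1 KD, Ier2 by 0.23 and 0.47, and Ier5 by 0.05 and 0.30. Egr1 differed by 0.09 (SE 0.08, adjusted p = 0.299) and went opposite ways in the groups, by -0.14 in control and 0.31 in Kap1 KD. Egr2 was at -0.40 (SE 0.34, adjusted p = 0.298), with -0.36 in control and -0.32 in Kap1 KD. Thus 3 of the 5 passed an adjusted p under 0.05, against 63.6% of tested genes. All 3 were higher in replicate 2. Of the 8990 tested genes that passed, 4450 were higher in replicate 2, which is 31.5% of all tested genes. None of the 5 also passed 1.5-fold, which 26.5% of tested genes did, with 1284 higher and 2464 lower. With total counts in place of TMM factors, 847 genes were higher and 2957 lower.

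These calls depended on the model. Without the group term the adjusted p was 0.195 for Ier3, 0.117 for Ier2 and 0.312 for Ier5, and DESeq2 or total counts also ended the call of Ier5 (adjusted p = 0.119 and 0.396) but kept those of Ier2 and Ier3. What the number stands for is not stated, the fit had 1 residual degree of freedom, and its spread was taken from the trend over all genes. For Ier2 the difference between same-group samples was at least as large as that between Kap1 KD and control (0.35 and 0.32).

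**Figure D4:**
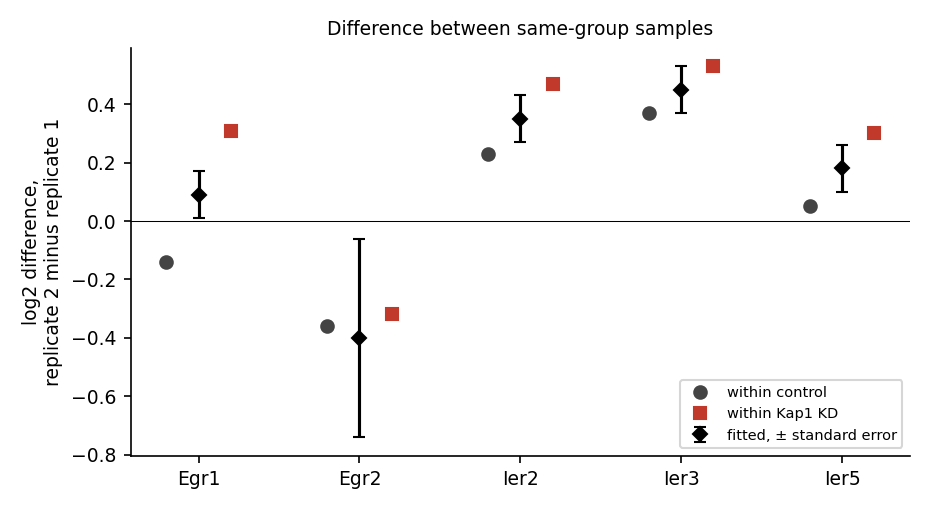
Log2 difference of replicate 2 over replicate 1 for each Egr and Ier gene within the control samples (grey circles), within the Kap1 KD samples (red squares) and as fitted over both (black diamonds, with the standard error). The values within a group are on the log2(CPM + 0.1) scale, which draws Egr2 toward 0. The 3 Ier genes lie above 0 in both groups, Egr2 lies below 0 in both, and Egr1 lies on either side.

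Other genes of the pathway were described from 6 lists of 86 genes, which like the Egr and Ier genes were drawn up with earlier results of these data known. Of these, 81 were tested, and in Kap1 KD against control 0 passed the thresholds in edgeR, 4 had an unadjusted p under 0.05 and 0 passed in DESeq2. The same edgeR fit did not call Trim28 either. Both KD samples were above both controls in 12 (14.8%, against 9.69% of all tested genes) and below in 6 (7.41%, against 10.6%); with total counts 9 were below. The median fitted log2 change was 0.07, with 0.02 and 0.11 in the pairs.

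The other immediate early genes accounted for 9 of the 12, out of 41 tested. These were Jun, Fos and Fosb of the AP-1 factors, the stress-induced factor Atf3, Myc, the kinase gene Sik1, Zfp36, which encodes an mRNA decay factor, and the growth arrest genes Gadd45g and Btg2. Fos and Fosb were low, and their groups barely parted. The higher control and the lower KD sample were at 2.7 and 2.72 CPM for Fos and at 1.83 and 1.85 CPM for Fosb. They were also close for Jun (18.1 and 19 CPM), Myc (207 and 214) and Sik1 (34.2 and 36.3). Zfp36, Atf3, Gadd45g and Btg2 were farther apart. Id1 and Irf1 were below both controls. The median fitted log2 change of the list was 0.20, with 0.13 and 0.22 in the pairs. Higher in both pairs were 25 of the 41, against 32.8% of all tested genes. Lower in both pairs were 8, for which the share over all tested genes was not computed. Btg2 stood highest, at 35.6 and 48.6 CPM in control and 66.8 and 96.3 in Kap1 KD, with log2 changes of 0.91 and 0.99 in the pairs. Lowest was Gadd45a, with -0.11 and -0.69.

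Genes upstream of the induction varied in both directions, in short lists. Over all tested genes, 9.69% were above both controls and 10.6% below. Among the 8 SRF, ternary complex and CREB factors 0 were above and 1, Elk3, was below both controls, with a median of -0.15; Srf was highest (0.12 and 0.41 in the pairs) and Atf1 lowest (-0.77 and -0.47). Of 14 tested ERK cascade genes, Rps6ka5 was above both controls and Araf, Nras and Map2k1 were below, with a median of -0.08. Rps6ka5 was at 2.26 and 2.2 CPM in control and 3.03 and 2.86 in Kap1 KD, and the lowest was the kinase gene Rps6ka3, with -0.49 and -0.24 in the pairs.

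Downstream and related genes were close to 0 as lists. The counts below stand against 9.69% of all tested genes above both controls and 10.6% below. Of 8 described EGR1 target genes, 0 were above and 0 below both controls, with a median of 0.06; Pdgfb, a growth factor chain, was highest (0.45 and 0.72 in the pairs). Of the list of genes with Egr or Ier in their names and NAB corepressors, 4 were tested (Egr4 was not). Of these, 0 were outside the controls, from Ier3ip1 (-0.23 and -0.39) to Nab2 (-0.11 and 0.26). Of 7 tested HSF1 and PP2A genes, the regulatory subunit genes Ppp2r2d and Ppp2r2b were above both controls, Ppp2r2b also being the highest (0.61 and 0.48) at 0.202 to 0.516 CPM; Ppp2r2a was the lowest (0 and -0.07). In 6 reference genes the median was 0.04, from Tbp (0.02 and -0.16) to Hprt (0.28 and 0.19), with 0 outside the controls.

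Between replicates 2 and 1, 59 of the 81 list genes had an adjusted p under 0.05 in edgeR (72.8%, against 63.6% of tested genes). Of the 81, 26 also passed 1.5-fold, 13 in each direction. Over all tested genes 26.5% did, with 1284 higher and 2464 lower. Higher in replicate 2, as Ier3 and Ier2 were, stood the immediate early genes Cyr61 (log2 difference 0.87), Ctgf, Fosb, Fosl1, Gadd45b, Junb (0.76), Dusp1, Dusp2 and Arc, the SRF partner gene Elk1, and the described EGR1 targets Pdgfb, Trp53 and Tgfb1. Those lower included Klf2 (-1.94), Klf4 (-1.41), Gadd45a and Rhob among the immediate early genes, Rps6ka3 (-1.08) and Braf of the ERK cascade, Creb1, Atf1, Elk4, Nab1 and Ier3ip1. Of the 41 tested immediate early genes, 24 were higher and 10 lower at the adjusted p alone. Over all 14142 tested genes, 4450 were higher and 4540 lower.

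The genes whose pattern over the 4 samples was most like that of each member were found by the root mean square difference of centred log2 CPM, among genes of at least 1 CPM on average. For Ier2 these were Ell (0.012), Tinagl1 (0.015) and Shroom3 (0.015), and for Ier5 they were Prkcd (0.01), Tbc1d25 (0.011) and Dot1l (0.018). For Ier3 they were Blcap (0.023), Gprc5a (0.036) and 5830416P10Rik (0.037). For Egr1 they were 2810459M11Rik (0.028), Rbfox1 (0.045) and Stk40 (0.071), and for Egr2 Gstk1 (0.047), Arrdc4 (0.05) and Gm6133 (0.066). With only 4 samples such likeness is common: 177 of 11812 genes correlated with Ier2 above 0.99, 99 with Ier3, 79 with Ier5 and 23 with Egr1. The Egr and Ier genes were not each other's nearest genes. Ier2 and Ier5 were the closest pair of members (0.096), yet 673 genes were nearer to Ier2 and 798 nearer to Ier5, and the member nearest to Ier3 was Ier2 (0.16), with 253 genes nearer. The member nearest to Egr1 was Ier5 (0.19), with 246 genes nearer, and the one nearest to Egr2 was Egr1 (0.24), with 744 nearer.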

How the data were processed

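The authors sequenced poly(A)+ RNA of 2 control and 2 Kap1 KD samples with a stranded kit, aligned reads to mm9 with TopHat2 2.0.11 and counted them per Ensembl gene with HTSeq 0.6.1, as the study's methods and the submitters' processing notes state. The deposited values are whole-number counts. Small RNA tables hold no Egr or Ier gene, so their 18 columns of per-sample values were not used here. Each mRNA column was matched to a sample by its title. Depth was 41566888 to 53605115 counts per sample. No molecular identifiers were used, so intervals cover counting error only.

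Counts were analysed in R 4.3.3 with edgeR 4.0.16 (filterByExpr, TMM factors, quasi-likelihood F test) over all 14142 tested genes with Benjamini-Hochberg adjustment. Thresholds were 1.5-fold and an adjusted p of 0.05. Kap1 KD was compared with control without a block, and replicate 2 with replicate 1 with the group as a term. A standard error is the log2 value divided by the square root of F. Changes per pair are on the log2(CPM + 0.1) scale, which understates changes of low genes. Identifiers were matched to the GENCODE annotation of mm9 (21806 of 21915), which gave coordinates and exonic lengths. DESeq2 1.42.0, total counts, another filter, the replicate block and leaving out samples were the alternatives.

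The Egr and Ier genes, the lists and the tests were chosen with earlier results of these data known. Genes named were the Egr and Ier genes, Trim28, the tested gene of each list with the highest and the lowest mean change of the pairs, list genes past both thresholds in a fit, and the 3 genes of most like pattern per member. List genes whose samples lay outside the controls were named after their values were seen. Some list genes that this rule names are not reported here.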

Additional observations from a re-analysis of the deposited data

How the results depend on the processing

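Between Kap1 KD and control, 0 genes were higher and 0 lower in the edgeR fit, against 2 higher and 1 lower with DESeq2. Leaving out each sample in turn gave 2 to 35 higher and 1 to 18 lower, most without Kap1 KD replicate 1 and fewest without Kap1 KD replicate 2; the lone sample left in a group was assumed to vary like the others. With the replicate block 292 genes were higher and 339 lower. The changes per pair use the same numbers as a description. Deviations of same-numbered samples from their group means correlated at 0.813 and the first principal component, with 75.8% of the variance, separated the numbers, but there are 2 pairs and nothing says what a number marks, so the block was not used for the main comparison. Under the block the log2 changes of the 5 genes were 0.59 for Egr1, 0.60 for Egr2, 0.31 for Ier2, 0.61 for Ier3 and 0.23 for Ier5. Between replicates 2 and 1, total counts gave 847 genes higher in place of 1284, and dropping the fold threshold gave 4450 higher and 4540 lower.

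No change of the members in Kap1 KD turned its sign under the alternatives run. Of 40 alternative values of the members' change in Kap1 KD, 29 stayed within 1 SD and 11 moved, 10 of these on leaving out a sample. The SD was that of the gene's 2 pair changes, so a gene whose pairs differed more had a wider bound. It was 0.32 for Egr1 and 0.03 for Egr2. Thus Egr1 at 0.44 and 0.75 on leaving out a Kap1 KD sample counted as staying, and Egr2 at 0.55 with total counts as moved. These counts are therefore no measure of how stable the changes were. Adding 1 CPM in place of 0.1 lowered the Egr2 changes to 0.22 and 0.21. Of 45 alternative values of the difference between replicates, 5 lost the call, as given above, and 3, all of Egr2, moved. Leaving out a sample left no residual degrees of freedom there, so those are values with no test. Each is in effect the difference within the group left whole, so it repeats the within-group values above and is no separate check. The Egr1 difference, which passed no threshold, was 0.31 without a control sample. It was -0.14 without Kap1 KD replicate 1 and -0.12 without Kap1 KD replicate 2. The Ier5 difference ran from 0.05 to 0.30. Of the list genes, 12 were above both controls under each scaling and 9 in place of 6 were below with total counts. Egr2 is limited by its 19 to 33 counts. The cause of these changes was not tested.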
